A study of Mus musculus with 2 samples.

Results

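H3K4me3 peaks that were higher in Dicer knockout (KO) than in wild-type (WT) cells, and that had no listed H3K27ac difference close by, are described here. The members were chosen by 2 readouts: an event had to be in the list of H3K4me3 events with more reads in KO, and no event of either H3K27ac list could lie within 5 kb of it. Of the 738 KO-higher H3K4me3 events, 320 met the rule (43.4%, 95% interval 39.7 to 47.0), out of 21418 events in the 6 lists of the series. The other 418 had an H3K27ac event within 5 kb and serve as the comparison. Below, without or with H3K27ac means without or with such a listed event within 5 kb, and not absence or presence of the mark. Because membership, reads and ratios of H3K4me3 all come from the contrast that chose the members, they are given as descriptions with no test.

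The cells were immortalized mouse mesenchymal stromal cells (MSCs), multipotent connective-tissue cells that the sample titles call fibroblasts, grown as monoclonal lines in Alpha-MEM with fetal bovine serum and no further treatment. One genotype was Dicer KO and the other Dicer WT. The labels give 1 H3K27ac ChIP-seq sample for each, do not say how many clones were used, and the H3K4me3 and H3K36me3 lists carry the genotype names without samples of their own. Replicates were pooled in the H3K27ac lists, and no list gives values per replicate. Every event therefore has 1 value per genotype, no replicate error can be given, and a difference between genotypes cannot be told apart from one between clones.

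Dicer cuts microRNA precursors into mature microRNAs, which silence messenger RNAs, so its loss removes most microRNAs from a cell. H3K4me3 is laid down at the start sites of active genes and also at CpG-rich promoters that are silent or poised. H3K27ac, made by the acetyltransferases p300 and CBP, marks active promoters and enhancers, and H3K36me3 is laid down along the bodies of genes during transcription. The lists hold only places where the genotypes differed: an event without a listed H3K27ac neighbour may carry no H3K27ac, or as much in KO as in WT, and these cannot be told apart here. Positions are in mm9, for which no gene annotation was at hand, so no genes are named and whether an event lies in a promoter, exon or intron was not analysed here.

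The peak caller listed a short DNA word beside some events, and these words are the sequence content of the list. They are shown because the 4 words of the KO-higher H3K4me3 list are shifted versions of one another, each a window of a repeated CACTTT, written 5′ to 3′ with ACTT, one of the stretches that all 4 hold, in capitals.
Word 1: ttcACTTt
Word 2: tttcACTT
Word 3: ACTTtcac
Word 4: cACTTtca
A pair of copies of the repeat holds all 4 words and is written with the second copy in capitals.
Repeat: cactttCACTTT
A word was listed for 67 of the 320 events without H3K27ac (20.9%, 16.6 to 25.8), against 17.1% of all 738 events and 59 of the 418 with H3K27ac (14.1%, 10.9 to 17.8). The intervals of the groups overlapped. Word 1 stood beside 45 of them, word 2 beside 19, word 3 beside 2 and word 4 beside 1; next to H3K27ac the numbers were 28, 20, 8 and 3. The list of WT-higher H3K4me3 events held 3 words, beside 353 events, and none of them was a word of the KO list. How the words were found, and how far from an event each lies, is not stated in the list. As a guide to how common they are, word 1 occurred on either strand in 1.55% of 32544 different RefSeq promoter sequences of 300 bases (GRCm38.p6), word 2 in 1.61%, word 3 in 0.851%, word 4 in 1.21% and any of the 4 in 4.07%. Neighbouring words overlap and can be found in the same promoter. The whole 12-base repeat was in 6 promoters. These promoters were not matched to events, and the window behind the list's words may be longer than 300 bases.

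Events without a listed H3K27ac difference within 5 kb were moderate in size. At the median event KO had 214 reads (95% interval of the median 205 to 230.0, quartiles 173 and 287) and WT had 57.9 reads after scaling (36.5 and 83.7), where scaling means that the authors' software multiplied WT by 2.15 to match KO. Before scaling, the WT median was 27 reads, so WT counts set the precision. The ratio of KO over scaled WT reads had a median of 3.54 (95% interval of the median 3.34 to 3.84, quartiles 2.68 and 5.93), and it ranged from 1.45 to 33.8. Beside H3K27ac the median was higher, 4.63 (4.25 to 4.96), with 250.4 reads (234 to 272) in KO and 56.5 scaled ones in WT. Thus the WT medians were close, and the KO median was lower where no H3K27ac difference was listed. A ratio of at least 5 was reached by 102 of 320 (31.9%), against 39.3% of the whole list and 188 of 418 beside H3K27ac, and a ratio of at least 10 by 31 and 72, or 14% of the whole list. At the other end, 6 events without H3K27ac were under 2-fold. The share that reached 2-fold was 98.1%, close to the 97.4% of the whole list. The lower limit of the counting interval was above 1 for all 320, as for all 738 of the whole list, which were listed because KO was higher.

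**Figure D1:**
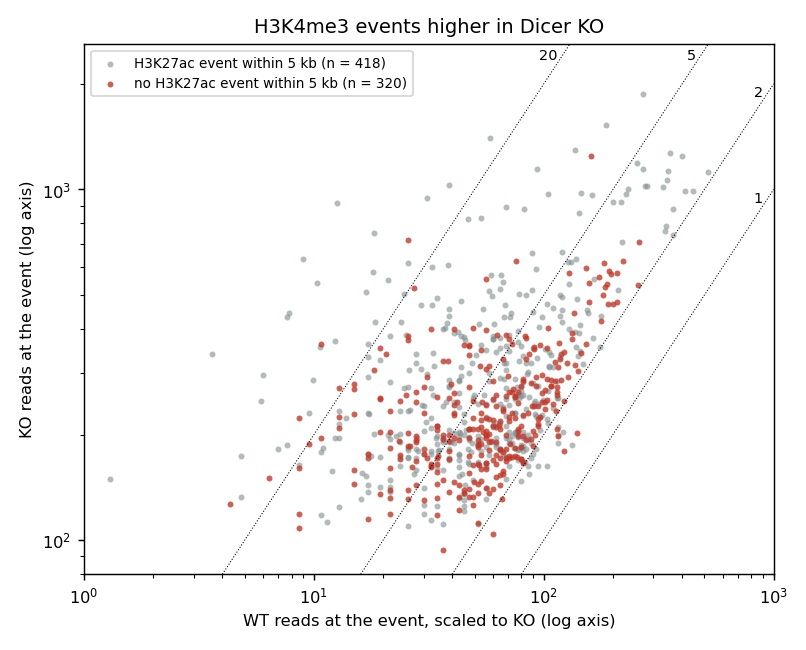
KO reads (y axis) against scaled WT reads (x axis) at each of the 738 KO-higher H3K4me3 events, both on log axes. The 320 events with no listed H3K27ac event within 5 kb are in red and the 418 with one in grey, with dotted lines at ratios of 1, 2, 5 and 20. Red points lie lower on the KO axis, with a median of 214 against 250.4 reads, and few exceed 600 KO reads.

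The lists also give an expected number of reads for each chromosome, called background reads here since the file does not define it. KO reads at the events without H3K27ac were 1.22 to 11.6 times this background, with a median of 1.75, and those with H3K27ac had a median of 2.09. All 738 events of the whole list were at least 1.20 times it. The 3 of the 320 with the smallest −log10 q were at 1.22, 1.26 and 1.28. The lower end thus goes with the threshold of the list and is no trait of these sites. In WT the same places mostly lay below the number given for WT, at a median of 0.299 times it. The number is not known to be a genomic background, so this does not show that the mark was depleted in WT. WT exceeded its background at 4 of 320 events, against 4.07% of the whole list. At all 4, KO was 3.66 to 5.86 times its background and WT only 1.05 to 1.25 times its own. At 23597556 on chromosome 13, 626 reads in KO stood against 221 in WT, 2.83-fold (2.30 to 3.52). The others were at 18590443 on chromosome 16 (ratio 2.86), 89938695 on chromosome 18 (2.36) and 160713576 on chromosome 2 (2.07). Measured with each genotype over its own background in place of the authors' scale, the median ratio was 6.06 (5.61 to 6.62). For the events with H3K27ac it was 7.60 (6.87 to 8.42). All 320 ratios stayed above 1, as did all 738 of the whole list. The same reads had chosen the events, so this is a description and no separate check.

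Ranked by −log10 q, the first event was at 110694040 on chromosome 13. It had 1244 reads in KO against 161 in WT (scaled, as for all WT reads below), and so a ratio of 7.74 (6.12 to 9.90). It also had the most KO reads of the 320. Beside it, at 110695054, 525 reads in KO stood against 27.2 in WT, a ratio of 19.3 (10.9 to 35.6), and word 2 was listed there. The nearest H3K27ac event was higher in KO and lay 11.2 kb from the pair. So the first site of the group had more acetylation in KO in its surroundings, though outside the 5 kb.

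Second by q was 144635459 on chromosome 3, where KO had 716 reads and WT 25.6, a ratio of 27.9 (15.8 to 54.1). No H3K27ac event lay within 344 kb of it. At 153325061 on chromosome 4 the reads were 625 in KO and 75.4 in WT, a ratio of 8.29 (5.92 to 12.1), and this event also stood alone with respect to H3K27ac, at 429 kb. It was the one closest to H3K4me3 of the other direction: a WT-higher event lay 6067 bp away. The event at 41583614 on chromosome 15 had 555 against 56.3 reads, a ratio of 9.85 (6.72 to 15.4).

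The rest of the 10 with the largest −log10 q included both places almost empty in WT and places with more WT reads. At 87897937 on chromosome 18 KO had 399 reads and WT 40.8 (ratio 9.78, 6.19 to 16.4). At 138698211 on chromosome 7 there were 578 and 129 reads (4.49, 3.44 to 5.96), and at 37440863 on chromosome 16 there were 398 and 55.8 (7.13, 4.80 to 11.1). The event at 13806110 on chromosome 10 had the largest ratio of all, 33.8, from 362 reads in KO and 10.7 in WT, but the WT value rests on 5 unscaled reads and the interval runs from 14.3 to 105. Word 1 was listed beside it. The last of the 10, at 63837460 on chromosome 15, had 597 and 152 reads (3.92, 3.06 to 5.09), with WT at 0.562 times its background.

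Very large ratios came from places almost empty in WT. Among events with at least 10 scaled WT reads, the largest ratios not yet named were at 118007483 on chromosome 11, with 272 and 12.9 reads (ratio 21.1, 9.58 to 58.1), and 113345446 on chromosome 12, with 279 and 15.0 reads (18.6, 8.90 to 46.6). Below that level, 100469585 on chromosome X had 127 reads in KO against 4.3 in WT (29.5, 8.03 to 247). Fewer than 10 unscaled WT reads were found at 26 of the 320 events (8.12%), against 10.2% of the whole list. For these the size of the difference is known only within wide limits. A large ratio did not bring a large −log10 q: the event on chromosome 11 had 4.38, and one of 25.9-fold at 25359952 on chromosome 17 had 2.49, close to the list's threshold of 2. Their KO reads were 1.31 and 1.24 times the background of their chromosomes. Low values of −log10 q mostly followed KO reads and not WT reads. On chromosome 13, for example, 3 events with 144 KO reads had 27.9, 42.9 and 64.4 WT reads and values of 3.01, 3.01 and 3. There −log10 q is no measure of the difference between KO and WT.

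Large read numbers with small ratios were the opposite case. After the events on chromosomes 13 and 3 named first, most KO reads were at 126178202 on chromosome 8, with 707 in KO and 260 in WT (ratio 2.72, 2.24 to 3.33), then at 23597556 on chromosome 13 and 153325061 on chromosome 4, given above. The −log10 q of all 320 ran from 2 to 205 with a median of 11.1, against 19.2 beside H3K27ac, and 17 against 95 events, 15.2% of the whole list, reached 50. At the low end were 35006753 on chromosome 8, 78619547 on chromosome 16 and 114353082 on chromosome 1, with ratios of 3.26, 4.23 and 5.10 and a −log10 q between 2 and 2.02.

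Most events without H3K27ac were isolated. Merged when at most 5 kb apart, they formed 296 regions, of which 274 held 1 event, 20 held 2 and 2 held 3. Beside H3K27ac, 418 events formed 322 regions, of which 258 held 1 event, 44 held 2, 12 held 3 and 8 held 4 to 6. The share of events standing alone was 85.6% and 61.7%. No region held both kinds, since none of the 320 lay within 10 kb of a KO-higher H3K4me3 event that had H3K27ac, and 11 lay within 50 kb of one.

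The regions of 3 events were small. On chromosome 5, 116181258 to 116182708 had 1174 reads in KO and 382 in WT, a ratio of 3.07 (2.62 to 3.62), with the single events between 2.48 and 4.96. On chromosome 13, 47309160 to 47311745 had 539 and 105 reads, a ratio of 5.12 (3.82 to 7.02), at 978 kb from any listed H3K27ac. The pair on chromosome 13 described first, which led by −log10 q, had a joint ratio of 9.42 (7.56 to 11.7). The largest joint ratio of a pair was 17.6 (10.4 to 32.4), at 48866126 to 48866611 on chromosome 3. The pair at 144634652 to 144635459 on chromosome 3 reached 15.2 (10.4 to 23.1), and its weaker event had a ratio of 5.05. At 153324373 to 153325061 on chromosome 4 both events were alike, at 8.49 and 8.29. The longest region, 72987317 to 72990143 on chromosome 12, spanned 2827 bp.

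Distance to H3K27ac ran without a gap through the limit of the rule. Just inside were events at 103899870 on chromosome 13 (5037 bp, 144 KO and 27.9 WT reads), 95231837 on chromosome 10 (5974 bp, 181 and 64.4) and 113345446 on chromosome 12 (6437 bp, 279 and 15.0). Just outside were 122332324 on chromosome 10 (4971 bp, 245 and 55.8), 32277338 on chromosome 15 (4836 bp, 197 and 47.2) and 8488189 on chromosome 8 (4522 bp, 197 and 77.2). Few events were near the limit. With H3K27ac, the median distance was 254 bp, and the upper quartile 519 bp, while without it the median was 144 kb and the quartiles 50.2 and 424 kb.

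**Figure D2:**
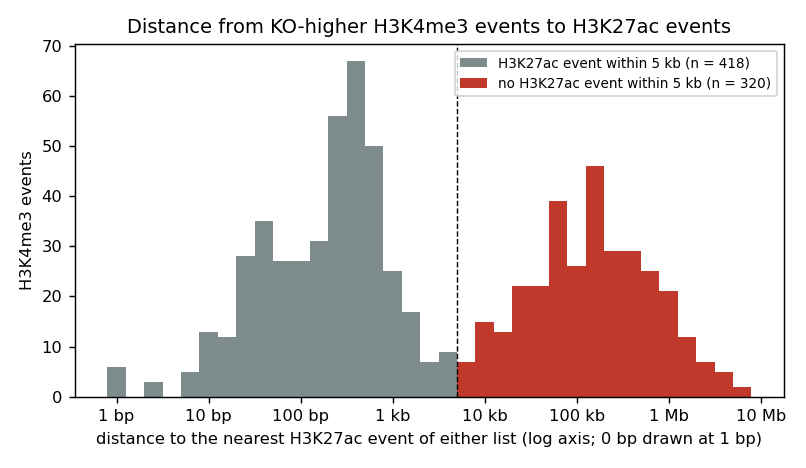
Number of KO-higher H3K4me3 events (y axis) by distance to the nearest H3K27ac event of either list (x axis, log scale), stacked. Events with no listed H3K27ac event within 5 kb are in red, those with one in grey, and the 5 kb of the rule is dashed. The counts fall to a low point near the dashed line, between medians of 254 bp and 144 kb.

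By distance, 12 of the 320 lay 5 to 10 kb from the nearest H3K27ac event, 67 at 10 to 50 kb, 48 at 50 to 100 kb, 161 at 100 to 1000 kb and 32 farther. The median ratio was about the same in each class, at 3.77, 3.5, 3.43, 3.53 and 3.80, and so were the median KO reads, between 194 and 229.
Events more than 1 Mb away included 84171366 on chromosome X, the most distant at 5853 kb, with 159 reads in KO and 15.0 in WT (ratio 10.6, 5.02 to 26.8). Among the 320, events far from listed H3K27ac thus had ratios like those of events 5 to 10 kb from it. The 418 events within 5 kb of it had a higher median, 4.63.

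The direction of the nearest H3K27ac event was also recorded. Over all 320 events it was KO-higher for 263 (82.2%, 77.5 to 86.2), close to the background, since 82.5% of all 10088 H3K27ac events were KO-higher. Among the 127 events within 100 kb of H3K27ac the nearest was KO-higher for 119 (93.7%, 88.0 to 97.2), and in the class closest to the rule for 12 of 12. Among the 193 events farther away it was KO-higher for 144 (74.6%, 67.9 to 80.6), so that the intervals of nearer and farther events did not overlap. A word was listed for 24 of the nearer and 43 of the farther events (18.9%, 12.5 to 26.8, and 22.3%, 16.6 to 28.8). Beyond 1 Mb the count was 12 of 32 (37.5%, 21.1 to 56.3). In the 4 nearer classes, from 5 kb outwards, the shares were 8.33%, 13.4%, 29.2% and 19.3%, with no steady trend. Over the whole list the share was 17.1%.

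**Figure D3:**
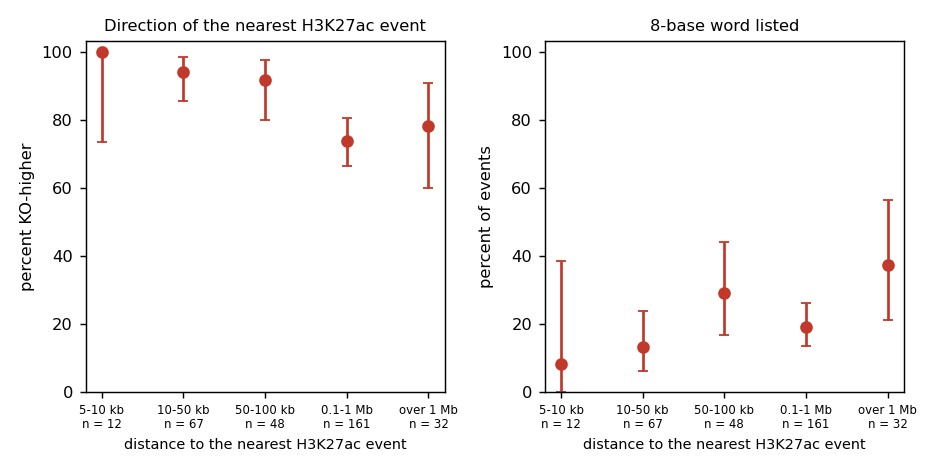
Events with no listed H3K27ac event within 5 kb, in 5 classes of distance to the nearest H3K27ac event (x axis, with n). Shown are the percent whose nearest H3K27ac event was KO-higher (left) and the percent with a listed word (right), with exact 95% intervals. The direction falls from 12 of 12 in the nearest class to 73.9% at 100 to 1000 kb, while the intervals for the words overlap between neighbouring classes.

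H3K36me3 was not used to choose the events and is a separate readout, whose lists name the same genotypes. A KO-higher H3K36me3 event lay within 5 kb of 13 of the 320 events without H3K27ac (4.06%, 2.18 to 6.85), against 11.7% of all 738 and 73 of the 418 with H3K27ac (17.5%, 13.9 to 21.4). Within 50 kb the counts were 40 (12.5%, 9.08 to 16.6) and 166 (39.7%, 35.0 to 44.6), with 27.9% over all 738. The intervals did not overlap at either distance. The 73 events shared 41 H3K36me3 events, so the share was also taken over merged regions (H3K4me3 events of a group at most 5 kb apart counted once). It was then 12 of 296 regions without H3K27ac (4.05%, 2.11 to 6.97) and 39 of 322 with it (12.1%, 8.76 to 16.2) within 5 kb, and 11.1% (7.80 to 15.3) and 30.7% (25.7 to 36.1) within 50 kb, again without overlap of the intervals. All of these intervals treat events or regions as independent draws and cover no replicate error. With 1 value per genotype no test of the difference between the groups was possible. For 307 of the 320 (95.9%) no KO-higher event of this transcription-linked mark was listed within 5 kb. The same held for 652 of all 738 (88.3%) and 345 of the 418 with H3K27ac (82.5%), so most events of either group had none.

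**Figure D4:**
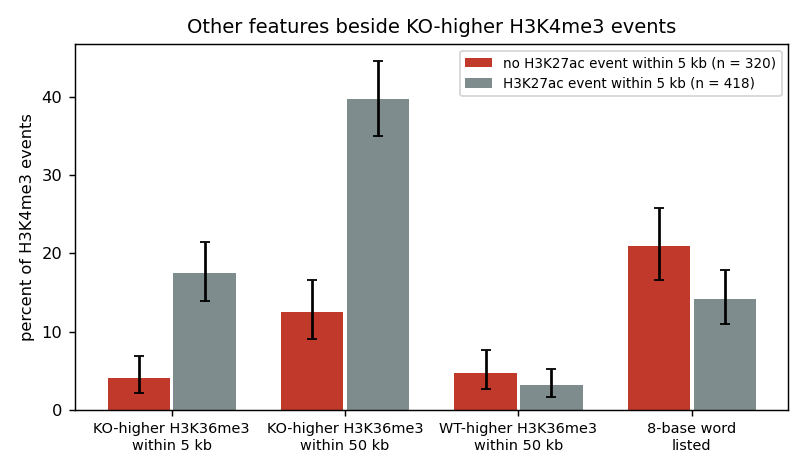
Percent of KO-higher H3K4me3 events (y axis) with a KO-higher H3K36me3 event within 5 and 50 kb, a WT-higher one within 50 kb, or a listed word. Events with no listed H3K27ac event within 5 kb are in red (n = 320) and those with one in grey (n = 418), with exact 95% intervals as error bars. The intervals of KO-higher H3K36me3 do not overlap between the groups (4.06% and 17.5% within 5 kb), and the others do.

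The H3K36me3 neighbours themselves were 12 events, since a pair shared one, with a median of 35.8 reads in KO (21.0 to 117). For 2 members the neighbour lay within 1 kb. At 48866611 on chromosome 3, H3K4me3 had 341 reads in KO and 20.5 in WT (ratio 16.6, 8.54 to 33.4), and H3K36me3 895 bp away had 21.9 and 1.7 (12.9, 3.83 to 66.5). This site held a second H3K4me3 event, at 48866126 with a ratio of 19.7 (8.37 to 80.8), and 4 H3K36me3 events within 5 kb. At 164182126 on chromosome 2, H3K4me3 had 337 against 47.2 reads (7.14, 4.64 to 11.6) and H3K36me3 945 bp away had 46 against 3.4 (13.5, 5.68 to 38.2), again with 4 events within 5 kb. The other 10 members had 1 H3K36me3 event within 5 kb.

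Among those, the best covered H3K36me3 event was 2834 bp from the member at 25385693 on chromosome 16, with 117 reads in KO and 29.2 in WT (ratio 4.0, 2.85 to 5.66). H3K4me3 there had 279 and 39.6 reads (7.05, 4.49 to 12.4). Beside 80295640 on chromosome 16, where H3K4me3 had 229 and 15.0 reads (15.3, 7.28 to 38.4), H3K36me3 had 65 reads in KO and 0 in WT, which puts the lower limit of its ratio at 29.8. This place was 1557 kb from listed H3K27ac. At 58969230 on chromosome 5, 4264 kb from H3K27ac, H3K4me3 had 256 and 34.3 reads (7.46, 4.50 to 13.2) and H3K36me3 had 21 and 0.6, too few in WT for a useful upper limit (lower limit 5.87). Both marks were thus higher in KO at places megabases from any listed change of H3K27ac.

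The remaining members with H3K36me3 had H3K4me3 ratios below 6. On chromosome 1, 77510627 had 248 H3K4me3 reads in KO and 54.1 in WT (ratio 4.59), 123295372 had 375 and 133 (2.82), and 166562149 had 215 and 94.4 (2.28). The H3K4me3 ratios were 3.04 at 35689444 on chromosome 17, 2.38 at 136953163 on chromosome 3, 5.66 at 145000575 on chromosome 4 and 2.05 at 134645184 on chromosome 2. Their H3K36me3 neighbours had ratios from 2.48, beside 166562149, to 20, beside 77510627.

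Opposite directions were rare. A WT-higher H3K36me3 event lay within 5 kb of 3 of the 320 events, against 0.407% of the whole list, and of 0 of the 418 with H3K27ac, which allows a share of up to 0.718% there. A pair on chromosome 5, at 66994144 (259 and 25.2 reads, ratio 10.3, 5.66 to 19.7) and 66994457 (204 and 54.2 reads, 3.76, 2.50 to 6.02), had an H3K36me3 event 2916 bp from the first that was 2.77-fold higher in WT (1.60 to 5.08). At 75113502 on chromosome 7, H3K4me3 had 274 reads in KO and 114 in WT (2.41, 1.79 to 3.30), and H3K36me3 948 bp away was 2.57-fold higher in WT (1.32 to 5.49). At these sites the initiation-linked and the elongation-linked mark differed in opposite directions. A WT-higher H3K4me3 event lay within 5 kb of 0 of the 320 events, which allows a share of up to 0.938%, and of 0% of the whole list. Within 10 kb the count was 3, against 0.949% of the whole list.

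Events without H3K27ac were found on all 20 chromosomes with KO-higher H3K4me3, from 2 on chromosome 19 to 32 on chromosomes 1 and 3. As a share of the KO-higher H3K4me3 events of a chromosome they ranged from 28.6% on chromosome 19 (2 of 7, 3.67 to 71.0) to 80% on X (8 of 10, 44.4 to 97.5). High shares were also seen on chromosome 9 (8 of 11, 72.7%, 39.0 to 94.0) and chromosome 4 (17 of 25, 68%, 46.5 to 85.1), and low ones on chromosome 12 (19 of 62, 30.6%, 19.6 to 43.7) and chromosome 16 (17 of 52, 32.7%, 20.3 to 47.1). The intervals of 18 of the 20 chromosomes, all but X and 4, contained the overall 43.4%. The density of listed H3K27ac events was 0.942 per Mb on X and 2.30 on chromosome 9, where the shares were high, and 6.12 on chromosome 12, where the share was low. Other chromosomes did not follow this order: chromosome 19 had the lowest share at 3.13 H3K27ac events per Mb, and chromosome 13 had 58.5% at 5.08 per Mb. Over the 20 chromosomes, which share libraries and are no independent samples, share and density gave a Pearson's r of -0.651 and a rho, by Spearman's method, of -0.463. Without X, over 19 chromosomes, these were -0.484 and -0.374. The part of this density in the shares was not tested.

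**Figure D5:**
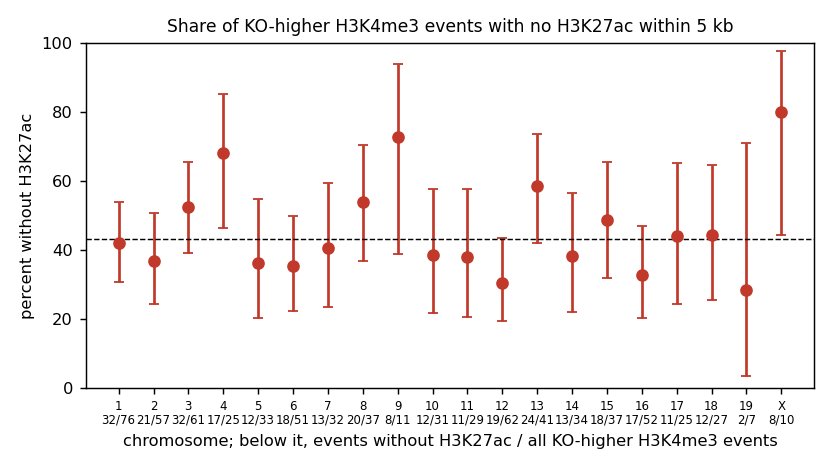
Percent of each chromosome's KO-higher H3K4me3 events that had no H3K27ac event within 5 kb (y axis, points with exact 95% intervals), by chromosome (x axis, with counts), and the overall 43.4% dashed. X, 9 and 4 lie highest, at 80%, 72.7% and 68%, on few events each.

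On chromosome X the 8 events had ratios with a median of 3.34 and a highest value of 29.5, and a median distance to H3K27ac of 959 kb. On chromosome 9 the 8 events had a median ratio of 3.87 at the scale of the list and 9.89 over own background, none had a listed word, and their median distance was 1115 kb. Chromosome 12, with closely spaced H3K27ac, had a median ratio of 3.10 over its 19 events and 4.31 over own background. Over all 320 events these medians were 3.54 and 6.06, so chromosomes 9 and 12 lay on different sides of them over own background, on few events. The background reads that enter this ratio also differed. They were 106.4 in KO and 126.7 in WT on chromosome 9, and 84.1 and 54.5 on chromosome 12.

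The WT-higher list holds the opposite direction. Of its 5542 H3K4me3 events 5076 had no H3K27ac event within 5 kb (91.6%, 90.8 to 92.3). H3K36me3 of the same direction lay within 5 kb of 754 of these 5076 (14.9%, 13.9 to 15.9) and of 117 of the 466 with H3K27ac (25.1%, 21.2 to 29.3). Counted over events, the order of the groups was the same in both lists. Shares over merged regions were not taken for the WT-higher list. The lists differ in size and scale, and the H3K36me3 lists came from different programs, so their shares are not compared between the KO-higher and WT-higher lists.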

How the data were processed

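Chromatin immunoprecipitation and sequencing compared Dicer KO and WT MSC lines. Alignment to mm9 and TopHat 1.4 are named, per the submitters' processing notes, without roles. Per the file headers and names, the authors' programs GPS (H3K27ac, KO list of H3K36me3) and GEM (H3K4me3, WT list of H3K36me3) predicted events with one genotype as immunoprecipitate and the other as control, pooling replicates for H3K27ac. Their versions: not given in the sources used here. The deposited estimated count is the reads at an event in the higher genotype, and the deposited signal of the control is scaled, as is an undefined expected signal per chromosome. The deposited fold, the ratio of both values, was recomputed. The deposited −log10 q starts at 2 and is limited at 999, and was used only to rank and filter. In the KO H3K4me3 list its low values mostly followed KO reads rather than WT reads. Deposited shape and word score columns were not used for results.

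To recover the scaling factor, steps of 0.0005 from 0.3 to 3 were searched for the one with most control values at whole multiples (tolerance 0.06) beyond the number of chance hits. It was 2.15 for the KO H3K4me3 list (94.4% of values whole), and its reads were divided by it for intervals: exact conditional binomial for ratios, Clopper-Pearson for shares, order statistics for medians, all 95%. The intervals of ratios cover counting error only, and without molecular identifiers a read is no independent molecule. Those of shares and medians treat events or regions as independent draws, which are no replicates of a genotype, and cover no replicate error. Library totals are unknown. A share of 0 is given the limit that 3 counts allow. Distances are between event positions. Named events are the 10 with the largest −log10 q, the 5 largest ratios with at least 10 scaled WT reads, the 5 with most KO reads, the 5 regions with most events, those with KO-higher H3K36me3 within 5 kb, and 3 on each side of the limit; events with other H3K36me3, low WT reads, lowest q or WT above background, and on X, were chosen after their values were seen. Members and measures were chosen with earlier results of these data known. Scripts ran in Python 3.11.15 with matplotlib 3.10.9, SciPy 1.17.1, pandas 2.3.3 and NumPy 2.4.6, and distance, scaling and interval steps were tested on simulated data. Words were searched in RefSeq promoters, 250 bases before to 50 after a gene's start.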

Additional observations from a re-analysis of the deposited data

How the results depend on the processing

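Of 74 alternative values, 66 stayed within 1.5 times the main count or inside the 95% interval of the main value, and 8 moved. Reversal was not assessed. Some of the 66 could not move. A limit of at least 50 KO reads removed no event, because the smallest KO count was 94. The absence of WT-higher H3K4me3 within 1 kb followed from its absence within 5 kb. A rule distance of 50 kb raised the median distance to H3K27ac from 144 to 250.1 kb by construction, and lowered the chromosomes with over 50% of events without H3K27ac from 6 to 3. A −log10 q of at least 5 raised the median KO reads from 214 to 248. Own background reads raised the median ratio from 3.54 to 6.06. The share with KO-higher H3K36me3 was 0.625% within 1 kb, 6.88% within 10 kb and 1.56% with H3K36me3 at a −log10 q of at least 5, against 4.06%. WT-higher H3K4me3 lay within 10 kb of 3 events and within 5 kb of 0. Leaving out chromosomes 9, 12 and X, or X alone, all alternatives for the listed words, and merged regions for the events with H3K27ac were chosen after seeing the data. No paired analysis was possible because each genotype has 1 value per event, and no replicate could be left out. Depth limits the ratios most where WT had under 10 unscaled reads.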
